A study of Mus musculus with 6 samples.

Results

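The 10 genes described here are the PGC-1 coactivators and the nuclear factors through which they act on mitochondria: *Ppargc1a*, *Ppargc1b* and *Pprc1*, *Esrra*, *Esrrb* and *Esrrg*, *Nrf1*, *Gabpa*, *Tfam* and *Tfb2m*. They were picked by name out of the 22027 genes of the deposited table, and all 10 were among the 12322 genes that passed the filter on low counts. RNA-seq was carried out on GAS (gastrocnemius) muscle of 3 WT and 3 mKD female mice, 14 weeks old and fed regular chow, with 1 poly(A)-selected, strand-specific library per mouse. The mKD mice were *Tet3* fl/fl and carried HSA-Cre79, a transgene in which the human α skeletal muscle actin promoter drives Cre recombinase in muscle fibres, so that the other cell types of the muscle keep *Tet3*. The WT mice were littermates with floxed *Tet3*, and both genotypes therefore hold the floxed allele. *Tet3* encodes a dioxygenase that oxidises methylated cytosine in DNA. The comparison asks whether mRNA of this gene set differs between the genotypes, and whether its members follow *Ppargc1a* from mouse to mouse. None of the 10 genes differed between mKD and WT muscle once p was adjusted over all genes. Of the set, *Gabpa* mRNA was lower (0.784 of the WT level) and *Pprc1* and *Nrf1* mRNA higher (1.25-fold and 1.21-fold) in every mKD library than in any WT library. Such lack of overlap was found for 24.8% of all genes tested. *Ppargc1a* itself had close means in both genotypes and a far wider spread among mKD mice than among WT mice, a difference not tested. By coefficient of variation, *Ppargc1b*, *Pprc1*, *Esrra*, *Esrrb*, *Esrrg*, *Nrf1* and *Tfam* had the wider spread among WT mice.

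As background, PGC-1α, the product of *Ppargc1a*, is a transcriptional coactivator. It binds no DNA itself but docks on transcription factors and brings in the enzymes that open chromatin and start transcription. In muscle its level and activity increase with endurance exercise, cold and fasting, and it is richer in slow, oxidative fibres than in fast ones. Its partners fall into tiers. The oestrogen-related receptors (ERRs) switch on genes of respiration and fatty acid oxidation, the nuclear respiratory factors NRF-1 and GABP switch on respiratory chain genes and *Tfam*, and TFAM and TFB2M enter the mitochondrion and start transcription of mitochondrial DNA.

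The libraries held between 16219227 and 32148270 reads, recovered as whole numbers from the deposited normalised counts (read counts divided by 1 factor per library). *Tet3* had normalised counts of 594, 536 and 708 in WT1, WT2 and WT3 and of 425, 318 and 472 in mKD1, mKD2 and mKD3. The genotypes did not overlap, and the log2 fold change was -0.60 (SE 0.18, limma adjusted p = 0.18), or -0.22 after a fit of log2 values on transcript length was subtracted in every library (below, the length trend removed). The 12 skeletal muscle fibre markers, fast fibre genes among them, had a summed normalised count between 4598970 and 5695440 in the 6 libraries. The 9 slow fibre markers did not stand at like levels. Their sum was 86627 in WT1, 7760 in WT2 and 211985 in WT3, and in mKD1, mKD2 and mKD3 it was 51629, 144354 and 53195. WT2 and WT3 were thus the lowest and the highest of the 6, 27.3-fold apart. The 10 Schwann cell and nerve markers summed to between 2553 and 2639 in WT and to 39601, 2019 and 12220 in mKD, so mKD1 and mKD3 stood apart from the other 4 libraries. The 10 endothelial markers were lower in mKD (8495 to 10405) than in WT (13231 to 14805), 7 of them past the 1.2-fold cutoff described below. Of the adipocyte markers, 3 of 9 tested were higher past that cutoff, with sums of 11501 to 17378 in WT and 16678 to 25542 in mKD. WT3 had the highest WT sum, but *Adipoq* was at 0 in it. The mean log2(value + 1) of the adipocyte markers was 3.54 in WT3 and between 7.03 and 8.61 in the other libraries. Of the Schwann cell and nerve markers 3 of 10 were higher past it, of the fibroblast markers 2 of 8 were lower, and of the macrophage and leukocyte markers 0 of 8 passed. Of all genes tested, 8.31% were higher and 9.51% lower past the cutoff, and the marker lists were not tested against these shares. In whole muscle, fewer cells of a type and less RNA per cell cannot be told apart, and the part of these cell types in the results below was not tested except where a value is given.

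*Ppargc1a* (GRCm38 chr5:51454250-51567726, minus strand) had normalised counts of 931, 865 and 902 in WT1, WT2 and WT3 and of 717, 1265 and 975 in mKD1, mKD2 and mKD3. The WT libraries lay close together, whereas mKD1 was the lowest and mKD2 the highest of all 6, so the mKD values enclosed the WT values. The mean was 899 ± 33.4 in WT and 985 ± 274 in mKD (SD, n = 3 mice each), a coefficient of variation of 3.71% against 27.8%. The log2 fold change, mKD minus WT, was 0.09 with a 95% interval of -0.36 to 0.55 (limma on log2(value + 1), adjusted p = 0.83 over 12322 genes). That interval leaves room for a change of either sign, and no difference was detectable with these 6 mice. With the length trend removed, the estimate was 0.32 (unadjusted p = 0.136). The sign depended on single mKD libraries, since the log2 fold change was -0.10 without mKD2 and 0.30 without mKD1. Without mKD1 and mKD3, the libraries high in Schwann cell genes, mKD2 alone was compared with the WT mice and the log2 fold change was 0.49 (unadjusted p = 0.0285), on the assumption that a lone library varies like the others.

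*Ppargc1b* (chr18:61298136-61400431, minus strand) encodes PGC-1β, a coactivator close to PGC-1α in structure that also works through ERRs. WT libraries held 217, 268 and 434 normalised counts of it, against 159, 233 and 208 in mKD libraries. mKD1 and mKD3 lay below the WT range and mKD2 inside it, with WT3 far above the rest. The log2 fold change was -0.57 (SE 0.27, 95% interval -1.20 to 0.07, adjusted p = 0.32), and it fell to -0.28 without WT3. The gene was past the cutoff without WT1, at -0.78 (unadjusted p = 0.0248).

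*Pprc1* (chr19:46044886-46072915, plus strand) encodes PRC, the third coactivator of the family, known as a growth-regulated partner of NRF-1. Normalised counts of 405, 492 and 523 were found in WT and of 568, 617 and 579 in mKD. All 3 mKD libraries were above all 3 WT libraries. Means were 473 ± 60.6 and 588 ± 26.0, 1.25-fold apart on the log2 scale, with a log2 fold change of 0.32 (SE 0.14, 95% interval 0.01 to 0.63). The adjusted p was 0.27, and the exact permutation p was 0.10, the smallest that 3 mice against 3 can give. *Pprc1* passed a cutoff of 1.2-fold at an unadjusted p under 0.05, with an unadjusted p of 0.0464 in limma. This cutoff follows the fold and p of the study's results section, which does not say whether p was adjusted, whereas its methods name a false discovery rate. The direction was kept but that call was lost when any single library other than WT3 was left out (log2 fold change 0.21 without WT1 to 0.35 without WT2). Its exons overlap those of *Ldb1* on the opposite strand, which had a log2 fold change of 0.27 (adjusted p = 0.33). The library kit keeps strand, but whether the counting used it is not given in the sources used here, so reads of such pairs may have been mixed.

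**Figure D1:**
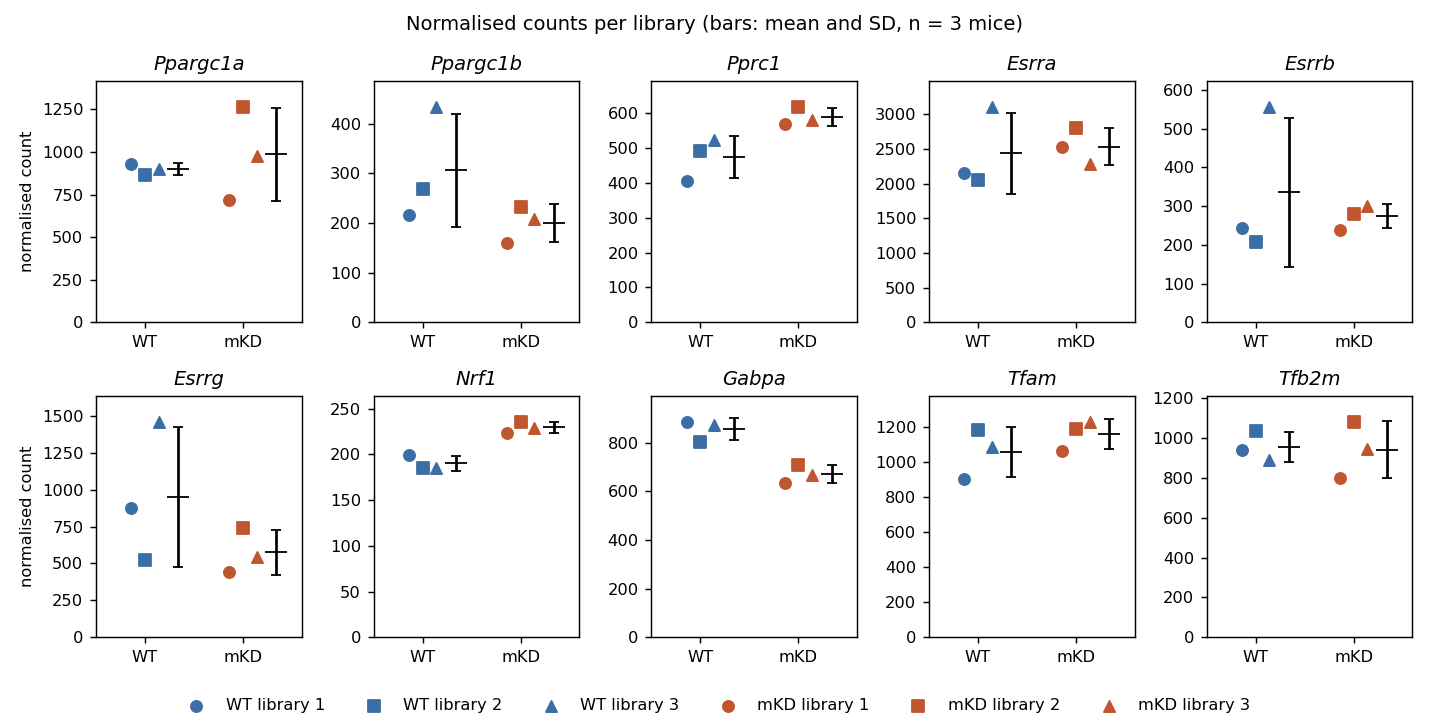
Normalised counts (vertical axes, each from 0) of the 10 genes in each library, WT in blue and mKD in red, with the mean and SD of 3 mice beside the points and a marker shape for each library number. *Ppargc1a* is tight in WT and spread in mKD, *Pprc1* and *Nrf1* sit higher and *Gabpa* lower in mKD with no overlap, and WT3 is the highest library for the 3 *Esrr* genes.

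The ERR genes encode orphan nuclear receptors that need a PGC-1 coactivator rather than a hormone. *Esrra* (chr19:6910977-6921813, minus strand) encodes ERRα, which is itself induced by PGC-1α. Its normalised counts were 2148, 2045 and 3103 in WT and 2522, 2797 and 2277 in mKD. The mKD values fell inside the WT range, and WT3 was highest. The log2 fold change was 0.08 (SE 0.17, 95% interval -0.32 to 0.48, adjusted p = 0.84), with the sign turned to -0.03 when WT2 was left out. The opposite strand gene *Trmt112*, whose exons overlap those of *Esrra*, had a log2 fold change of 0.41 (adjusted p = 0.27).

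*Esrrb* (chr12:86361117-86521628, plus strand) encodes ERRβ, best known from pluripotent cells and also present in oxidative fibres. WT libraries had normalised counts of 244, 207 and 556, and mKD libraries 239, 280 and 300. WT3 stood far above the other 5 libraries, and without it the log2 fold change of -0.16 (SE 0.35, adjusted p = 0.84) became 0.28. *Esrrg* (chr1:187608791-188214885, plus strand) encodes ERRγ, which in muscle is concentrated in slow, oxidative fibres. It had normalised counts of 876, 522 and 1461 in WT and of 439, 743 and 544 in mKD. These WT libraries were 2.80-fold apart, and the genotypes overlapped through WT2. The log2 fold change of *Esrrg* was -0.64 (SE 0.36, 95% interval -1.47 to 0.20, adjusted p = 0.38), the lowest estimate of the 10. It ranged from -1.01 without WT2 (unadjusted p = 0.0117) to -0.27 without WT3, the libraries with the lowest and the highest slow fibre level.

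*Nrf1* (chr6:30047988-30153458, plus strand) encodes NRF-1, a DNA-binding activator of respiratory chain genes. Its normalised counts were 200, 186 and 185 in WT and 224, 236 and 229 in mKD. The values were tight within each genotype, at 190 ± 8.25 and 230 ± 5.90, and did not overlap. The log2 fold change was 0.27 (SE 0.14, 95% interval -0.05 to 0.59, adjusted p = 0.34), and at an unadjusted p of 0.0861 the gene was not past the cutoff. The exact permutation p was 0.10, the smallest this design can give.

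*Gabpa* (chr16:84834925-84863779, plus strand) encodes GABPα, the DNA-binding ETS subunit of GABP, also called NRF-2. WT libraries held 885, 803 and 874 normalised counts, and mKD libraries 635, 709 and 665. Every mKD library was below every WT library. From 854 ± 44.9 in WT the mean went to 669 ± 37.2, or 0.784 of the WT level on the log2 scale, with a log2 fold change of -0.35 (SE 0.11, 95% interval -0.61 to -0.09). *Gabpa* passed the 1.2-fold cutoff at an unadjusted p of 0.0136, with an adjusted p of 0.19 and an exact permutation p of 0.10. Leaving out mKD1 ended that call, at a log2 fold change of -0.31 (unadjusted p = 0.0535). Removal of each library's trend over transcript length brought the estimate to -0.22 (unadjusted p = 0.0722). The partner subunits, which carry the activation domain, had log2 fold changes of -0.38 for *Gabpb1* (adjusted p = 0.36) and -0.18 for *Gabpb2* (adjusted p = 0.59). The 3 mKD libraries were below the 3 WT libraries for *Gabpb1* but not for *Gabpb2*. *Atp5j*, a gene of ATP synthase on the opposite strand with overlapping exons, had a log2 fold change of 0.13 (adjusted p = 0.65).

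*Tfam* (chr10:71225464-71238280, minus strand) encodes the protein that packs mitochondrial DNA and bends it at its promoters. Normalised counts were 906, 1187 and 1085 in WT and 1063, 1190 and 1232 in mKD. The groups overlapped, with only WT1 clearly low, and the log2 fold change was 0.14 (SE 0.13, 95% interval -0.17 to 0.45, adjusted p = 0.61). *Tfb2m* (chr1:179528055-179546267, minus strand) encodes the factor that helps mitochondrial RNA polymerase melt its promoter. It had normalised counts of 941, 1037 and 892 in WT and of 801, 1083 and 946 in mKD. As for *Ppargc1a*, mKD1 was the lowest and mKD2 the highest of the 6, around WT values. The log2 fold change of *Tfb2m* was -0.03 (SE 0.14, 95% interval -0.35 to 0.30, adjusted p = 0.93). Its paralogue *Tfb1m*, which methylates mitochondrial ribosomal RNA, was at -0.07, and the polymerase *Polrmt* at 0.07 (adjusted p = 0.87 and 0.85).

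Across the set, 0 of 10 genes passed at an adjusted p under 0.05, against 0.0162% of all genes tested (2 genes, and 2229 at an unadjusted p under 0.05; DESeq2 gave 535 genes and 0 of the 10). At 1.2-fold with an unadjusted p under 0.05, *Pprc1* was the 1 gene higher, where 8.31% of all genes were higher, and *Gabpa* the 1 gene lower, where 9.51% of all genes were lower. Together these are 2 of 10 genes beside 17.8% of all genes. WT and mKD libraries had no overlap for 3 of 10 genes, *Pprc1*, *Nrf1* and *Gabpa*, beside 24.8% of all genes. These shares are near the background. The median log2 fold change was 0.03 for the 10 genes and 0.01 for all genes tested.

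**Figure D2:**
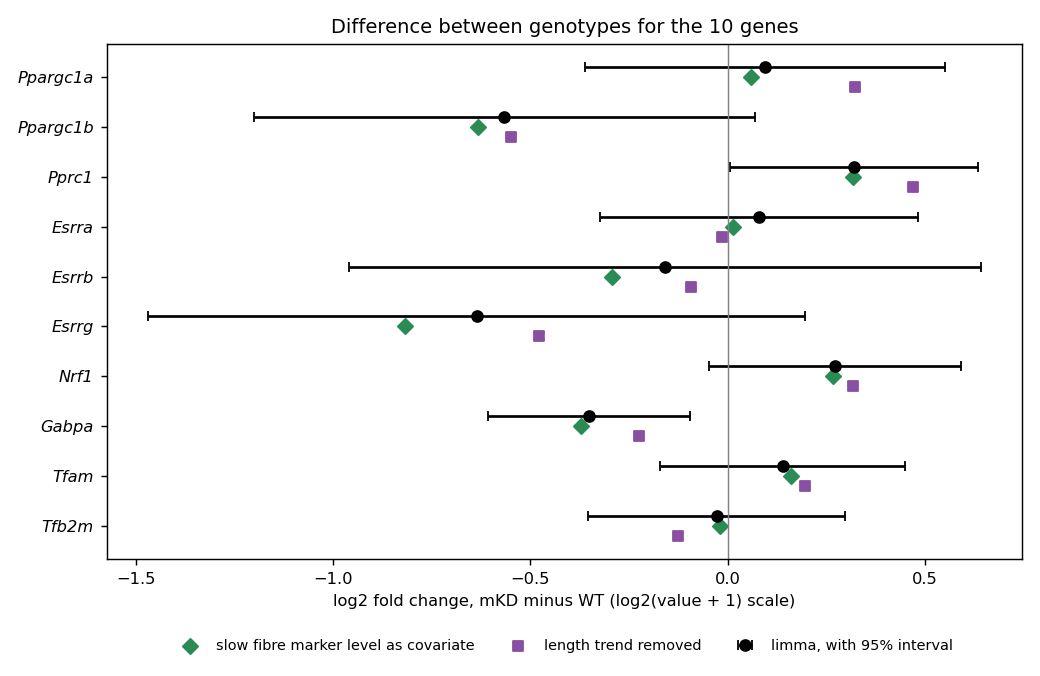
Log2 fold change of each gene (horizontal axis, mKD minus WT on log2(value + 1)), with limma's estimate and 95% interval in black, the estimate with the slow fibre marker level as a covariate in green and the estimate after removal of the length trend in purple. The intervals of *Pprc1* and *Gabpa* exclude 0, and the green *Esrrg* estimate of -0.82 lies below the black one of -0.64.

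Per kilobase of the longest annotated transcript, *Esrra* stood first with a mean of 997 ± 164 normalised counts per kilobase over the 6 libraries (SD). *Tfb2m* (388 ± 41.3), *Tfam* (267 ± 28.7) and *Gabpa* (153 ± 21.6) followed, each above the next in all 6 libraries and with ranges that did not touch. *Gabpa* was not separated from *Ppargc1a* (146 ± 28.0), nor *Ppargc1a* from *Esrrg* (142 ± 70.2). *Pprc1* (101 ± 14.4), *Esrrb* (70.8 ± 29.7), *Ppargc1b* (69.3 ± 26.1) and *Nrf1* (51.9 ± 5.58) came last, with overlapping ranges between neighbours. *Ppargc1a* mRNA was thus above that of the other coactivators by mean, in a muscle in which the receptor *Esrra* was the most abundant of the set on this scale. Length here is that of the longest transcript, and a gene that mainly uses a shorter one would stand higher.

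The promoters were compared because GABP and NRF-1 sites are textbook features of genes in this set. RefSeq promoter windows (GRCm38.p6), from 250 bases before to 50 bases after each annotated start, were found for 9 of the 10 genes, 14 windows in all. They were searched on both strands for the NRF-1 motif GCGCANGCG, the ETS motif of GABP CCGGAAG, the ERR motif AAGGTCA and the cAMP response element TGACGTCA. A match was found in 4 of the windows, and the 4 are shown 5′ to 3′ with the match in capitals. *Esrra* (chr19:6921759-6922058, minus strand) held an NRF-1 motif from position -141 relative to the start, and *Gabpa* (chr16:84834874-84835173, plus strand) an ETS motif on the other strand from -93. *Tfam* (chr10:71237995-71238294, minus strand) held an ETS motif from -47, and *Tfb2m* (chr1:179546227-179546526, minus strand) an NRF-1 motif on the other strand from 13.
Esrra: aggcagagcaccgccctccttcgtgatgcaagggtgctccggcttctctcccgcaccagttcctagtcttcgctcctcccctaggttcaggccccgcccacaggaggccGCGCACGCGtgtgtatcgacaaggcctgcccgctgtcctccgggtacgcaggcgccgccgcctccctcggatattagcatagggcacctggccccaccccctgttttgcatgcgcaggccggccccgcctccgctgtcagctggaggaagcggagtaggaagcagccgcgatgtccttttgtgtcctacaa
Gabpa: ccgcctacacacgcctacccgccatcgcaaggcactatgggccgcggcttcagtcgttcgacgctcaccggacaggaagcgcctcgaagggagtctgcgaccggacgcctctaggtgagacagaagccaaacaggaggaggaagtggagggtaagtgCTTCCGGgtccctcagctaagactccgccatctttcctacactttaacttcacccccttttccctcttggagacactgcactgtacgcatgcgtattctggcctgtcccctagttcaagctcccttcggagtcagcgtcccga
Tfam: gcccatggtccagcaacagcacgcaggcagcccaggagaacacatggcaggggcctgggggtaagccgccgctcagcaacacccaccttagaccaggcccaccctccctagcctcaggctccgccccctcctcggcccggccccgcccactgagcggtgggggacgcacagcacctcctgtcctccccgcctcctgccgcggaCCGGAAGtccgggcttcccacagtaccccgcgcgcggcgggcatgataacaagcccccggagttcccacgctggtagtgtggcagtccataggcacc
Tfb2m: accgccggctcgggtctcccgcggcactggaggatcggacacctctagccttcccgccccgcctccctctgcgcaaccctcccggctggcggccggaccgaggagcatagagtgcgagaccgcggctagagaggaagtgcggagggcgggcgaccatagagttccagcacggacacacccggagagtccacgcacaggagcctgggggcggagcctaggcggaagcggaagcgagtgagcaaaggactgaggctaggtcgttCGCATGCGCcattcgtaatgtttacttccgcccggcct
Of 32851 RefSeq windows of this length, 6.25% held the NRF-1 motif, 8.86% the ETS motif, 4.72% the ERR motif and 1.79% the cAMP response element. The *Gabpa* window thus holds the motif of its own product. The factor genes *Gabpa* and *Nrf1* had log2 fold changes of -0.35 and 0.27, whereas the 2 genes with an ETS match, *Gabpa* itself and *Tfam*, had -0.35 and 0.14, and those with an NRF-1 match, *Esrra* and *Tfb2m*, had 0.08 and -0.03. A match is a run of letters and not a measured binding site.

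Across the 6 libraries, *Tfb2m* had the highest correlation with *Ppargc1a* of the 9 other genes. Pearson's r of log2(value + 1) was 0.80 (exact permutation p = 0.0681, 0.61 after Benjamini-Hochberg adjustment over the 9 relations), and Spearman's rho was 0.66 (exact permutation p = 0.175, adjusted 0.53). It rested on mKD1 and mKD2, the libraries farthest from the median of *Ppargc1a*, and r was -0.47 without them. With the length trend removed r was 0.37 for *Tfb2m*, lower than for *Nrf1* (0.65), *Pprc1* (0.59) and *Tfam* (0.51). Of the other genes, in the values as deposited, *Nrf1* had r = 0.36, *Tfam* 0.32, *Esrrg* 0.31 and *Pprc1* 0.28. *Esrra* (0.24), *Ppargc1b* (0.21), *Esrrb* (0.14) and *Gabpa* (0.08) were lower still. For these 8 genes the exact permutation p was between 0.521 and 0.885 for r (adjusted 0.80 to 0.88) and between 0.242 and 0.919 for rho, which ran from 0.09 for *Ppargc1b* to 0.60 for *Nrf1* (adjusted 0.53 to 0.92). Thus 0 of 9 relations held at an adjusted p under 0.05. Without mKD1 and mKD2, r turned negative for *Ppargc1b* (-0.52), *Gabpa* (-0.57), *Esrrg* (-0.10) and *Tfam* (-0.01), while that of *Nrf1* was 0.92 over the 4 libraries left.

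mKD1 was the lowest mKD library for 9 of the 10 genes, all but *Esrra*, and mKD2 was the highest for 8, all but *Esrrb* and *Tfam*. The order of *Ppargc1a*, with mKD2 above mKD3 above mKD1, was found for 6 of the other 9 genes. Of all 12322 genes tested, mKD1 was the lowest mKD library for 33.2% and mKD2 the highest for 35.9%, and 17.9% had that order. The members were not tested against these shares. The WT libraries had no such common order: WT3 was highest for 5 genes and WT2 lowest for 5, which were not all the same genes. With genotype means removed, r with *Ppargc1a* was 0.84 for *Tfb2m*, 0.79 for *Gabpa*, 0.60 for *Nrf1*, 0.51 for *Esrrg* and 0.45 for *Ppargc1b*. mKD1 was also the library with the most Schwann cell mRNA, and mKD2 had both the least Schwann cell mRNA of the 6 and the highest slow fibre level of the mKD libraries. The part of either in the common order was not tested.

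**Figure D3:**
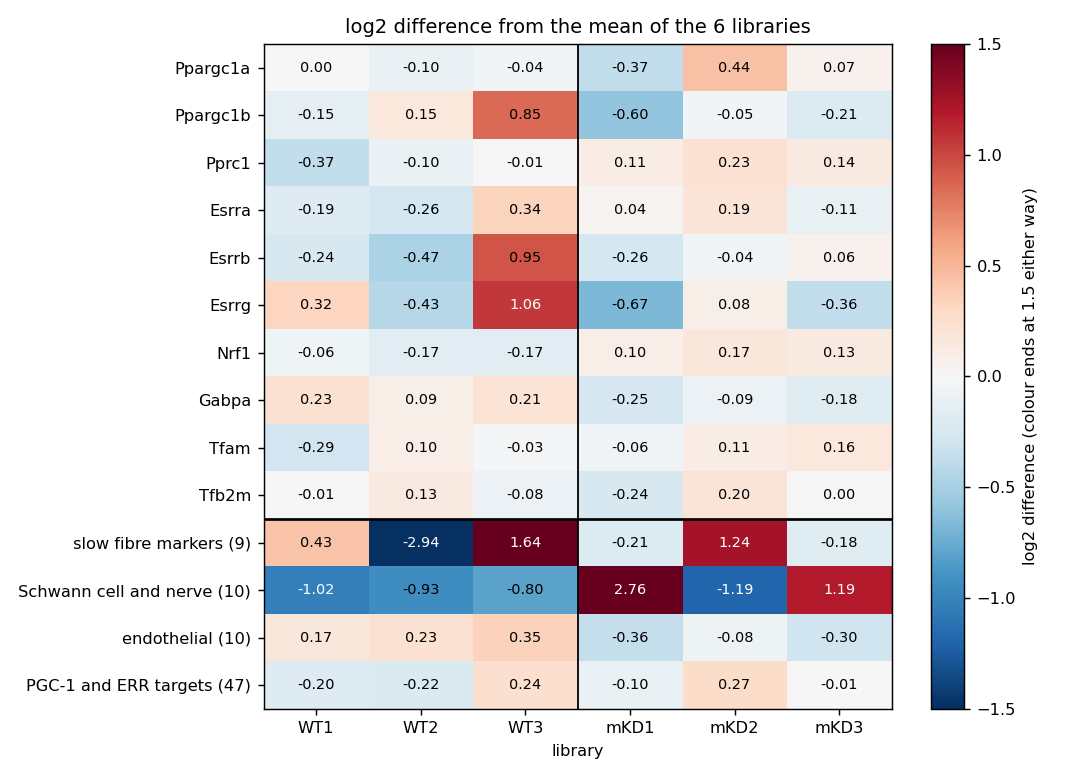
Deviation of each library from the 6-library mean on the log2 scale, for the 10 genes and, under the line, for the mean log2 level of 4 gene lists (their numbers of genes in brackets), with red above and blue below that mean and colours that end at 1.5. mKD1 is blue and mKD2 red or near 0 for most of the set, WT3 is red for *Ppargc1b* (0.85), *Esrrb* (0.95) and *Esrrg* (1.06), and the Schwann cell row is highest in mKD1 (2.76).

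Of the 10 genes, the 3 ERR genes had the highest correlations with the slow fibre marker level of the library, a relation looked at after the data were seen. For *Esrra*, r with the mean log2 level of the 9 slow fibre markers was 0.79 (exact permutation p = 0.0444, 0.44 after adjustment over 10 relations) and rho was 0.77 (p = 0.103, adjusted 0.34, by the same test). For *Esrrg*, r was 0.67 (exact permutation p = 0.149, adjusted 0.55) and rho 0.89 (exact permutation p = 0.0333, adjusted 0.29). *Esrrb* had r = 0.70 (exact permutation p = 0.165, adjusted 0.55) and rho = 0.83 (p = 0.0583, adjusted 0.29). None of the 10 relations held at an adjusted p under 0.05. Without WT2 and WT3, the libraries farthest from the median, r was 0.54 for *Esrra*, 0.15 for *Esrrb* and 0.71 for *Esrrg*. *Ppargc1a* had r = 0.39 (exact permutation p = 0.401, adjusted 0.80), rho = 0.54 (exact permutation p = 0.297, adjusted 0.70) and r = 0.84 without the same libraries. *Tfb2m* (0.84) and *Ppargc1b* (0.74) were then also above the 3 ERR genes, so their lead rested on WT2 and WT3. For the remaining 6 genes r lay between -0.27 for *Tfam* and 0.28 for *Nrf1* (exact permutation p between 0.564 and 0.907, adjusted 0.80 to 0.91) and rho between -0.03 and 0.43 (exact permutation p between 0.419 and 1.0, adjusted 0.70 to 1.0).

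With the slow fibre level as a covariate in limma, the log2 fold change of *Esrrg* was -0.82 in place of -0.64 (unadjusted p = 0.00158, adjusted p = 0.156). This covariate was chosen after the data were seen, and WT2, at a mean log2 level of 9.39, had no mKD library near its slow fibre level. All 10 estimates moved by less than their standard errors, the others among them to 0.06 for *Ppargc1a*, 0.01 for *Esrra*, -0.29 for *Esrrb* and -0.37 for *Gabpa*. The labels do not say which part of the muscle was taken from each mouse.

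**Figure D4:**
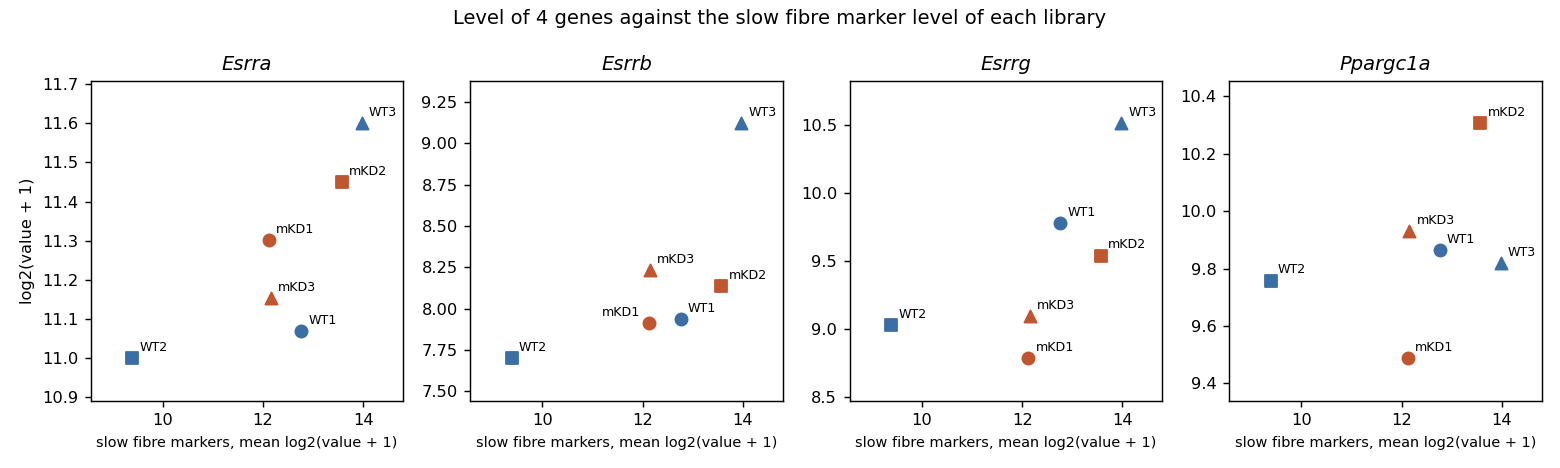
Level of *Esrra*, *Esrrb*, *Esrrg* and *Ppargc1a* (vertical axis, log2(value + 1)) against the mean log2 level of 9 slow fibre markers (horizontal axis) in each of the 6 libraries, WT in blue and mKD in red. WT2 lies at the left (9.39) and WT3 at the right (13.97), and the 3 *Esrr* genes are highest in WT3, whereas *Ppargc1a* is highest in mKD2.

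Of 27 tested genes for transcription, replication and upkeep of mitochondrial DNA, *Ssbp1* was the 1 gene higher past the 1.2-fold cutoff and 0 were lower, with a median log2 fold change of 0.06. Over all genes tested 8.31% were higher, 9.51% were lower and the median was 0.01. *Ssbp1*, which coats single-stranded mitochondrial DNA, had normalised counts of 423, 445 and 410 in WT and of 571, 568 and 554 in mKD. Its log2 fold change was 0.40 (SE 0.11, adjusted p = 0.16), with no overlap between the genotypes. The kinases that supply deoxynucleotides in the mitochondrion were at 0.45 for *Tk2* and 0.27 for *Dguok*, and the ribonucleotide reductase subunit *Rrm2b* was at -0.32, none of them past the cutoff. The most abundant members, the RNA-binding *Lrpprc* and the protease *Lonp1*, were at -0.01 and 0.16.

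Partners of the PGC-1 coactivators included 7 of 31 tested genes lower past the cutoff and 0 higher (median log2 fold change -0.18), beside 9.51% of all genes lower and 8.31% higher. The difference from all genes was not tested. *Nr3c1*, the glucocorticoid receptor, had normalised counts of 2401, 2632 and 2332 in WT and of 1850, 1654 and 1438 in mKD, with a log2 fold change of -0.58 (SE 0.12, adjusted p = 0.12). The coactivator *Ncoa2* was at -0.74 (SE 0.25), the thyroid hormone receptor *Thrb* at -0.39 (SE 0.13) and the acetyltransferase *Ep300* at -0.27 (SE 0.09), each with adjusted p of 0.20 or 0.21. After removal of the length trend 4 of the 31 passed, where 1294 of all 12322 genes tested did, and *Ep300* turned to 0.08. *Ppara*, a partner in fatty acid oxidation, was at -0.13 and *Perm1*, a muscle regulator that acts beside PGC-1 and ERRs, at 0.04 (adjusted p = 0.85 and 0.93). *Nfe2l1*, the most abundant, was at -0.28 (adjusted p = 0.38).

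Regulators of PGC-1α activity and stability included 1 gene higher and 9 lower past the cutoff among 34 tested (median -0.09), *Tet3* among the lower, beside 8.31% of all genes higher and 9.51% lower. With the length trend removed 7 passed, where 1294 of all 12322 genes tested did. The median of the 34 then turned to 0.035, with 22 of 34 above 0. AMP-activated kinase, which phosphorylates PGC-1α, was represented by its catalytic subunits. *Prkaa1* had normalised counts of 398, 460 and 367 in WT and of 214, 289 and 277 in mKD, with a log2 fold change of -0.65 (SE 0.17, adjusted p = 0.15). The more abundant *Prkaa2* was at -0.44 (SE 0.14, adjusted p = 0.20), also without overlap, and at -0.14 with the length trend removed. *Fbxw7*, the ubiquitin ligase subunit that marks PGC-1α for degradation, was at -0.65 (SE 0.17, adjusted p = 0.15), and *Camk2b*, a calcium-dependent kinase, at -0.79 (SE 0.24, adjusted p = 0.19). The p38 kinase gene *Mapk14* was at 0.54 (SE 0.28, adjusted p = 0.35), with 3114 and 3622 normalised counts in mKD1 and mKD3 and 1616 in mKD2, so its high values were in the libraries high in Schwann cell genes. The deacetylase *Sirt1* was at 0.29 and the kinase *Akt2* at 0.08 (adjusted p = 0.35 and 0.74). Without mKD1, 6 of the 34 regulators and 2 of the 31 partners passed, where 1467 of all 12322 genes tested passed.

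Textbook targets of PGC-1 and ERRs included 6 of 47 higher past the cutoff and 0 lower, with a median log2 fold change of 0.12, beside 8.31% of all genes higher and 9.51% lower. *Slc25a4*, the ADP/ATP carrier of muscle, had normalised counts of 97483, 106040 and 115300 in WT and of 132110, 161940 and 124930 in mKD (log2 fold change 0.39, SE 0.16, adjusted p = 0.26). The cytochrome oxidase subunits *Cox4i1* and *Cox6a2* were at 0.40 and 0.41, the ATP synthase subunit *Atp5o* at 0.27 and the uncoupling protein *Ucp2* at 0.88 (adjusted p between 0.20 and 0.26). Myoglobin (*Mb*) was at -0.06, with WT3 the highest library at 132540. Once the length trend was removed, the median was -0.004 and 1 of 47 passed. *Cox4i1* was then at 0.06, *Cox6a2* at 0.05 and *Atp5o* at -0.04, whereas *Slc25a4* was at 0.22 and *Ucp2* at 0.92. Removal of the trend also takes out any shift that genes of like length share. Of all 12322 genes tested, 1294 then passed. Without mKD1, 0 of 47 targets and 1467 of all genes passed, and without WT3, 10 targets and 2304 of all genes passed.

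Between mice, the targets had the highest median correlation with *Ppargc1a* of the 4 lists. Pearson's r with *Ppargc1a* over the 6 libraries was positive for 44 of 47 targets (93.6%), with a median of 0.51, beside 51.4% and a median of 0.01 over all genes. The genes for mitochondrial DNA came next, with 22 of 27 positive (81.5%) and a median of 0.16. Regulators (61.8% positive, median 0.09) and partners (41.9%, median -0.07) were lower. All these values share the same 6 libraries, and *Ppargc1a* varied mainly through mKD1 and mKD2. The targets with r of at least 0.8, named after their values were seen, were 5 of 47, all genes of fatty acid oxidation and uptake. They were *Hadha* (0.90), *Acadm* (0.90), *Fabp3* (0.86), *Acadvl* (0.83) and *Cpt1b* (0.81). Over all genes, 197 of 12321 had r over 0.8, and the difference was not tested. With the slow fibre level, r was 0.69 for *Hadha*, 0.68 for *Acadm*, 0.79 for *Fabp3*, 0.69 for *Acadvl* and 0.65 for *Cpt1b*. *Hadha*, a subunit of the mitochondrial trifunctional protein, had normalised counts of 14468, 12308 and 16950 in WT and of 11355, 21247 and 14293 in mKD, with mKD1 lowest and mKD2 highest as for *Ppargc1a*. Targets also followed the slow fibre level, with 43 of 47 positive and a median r of 0.50, so the relation to *Ppargc1a* and the relation to fibre type cannot be told apart in 6 libraries.

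**Figure D5:**
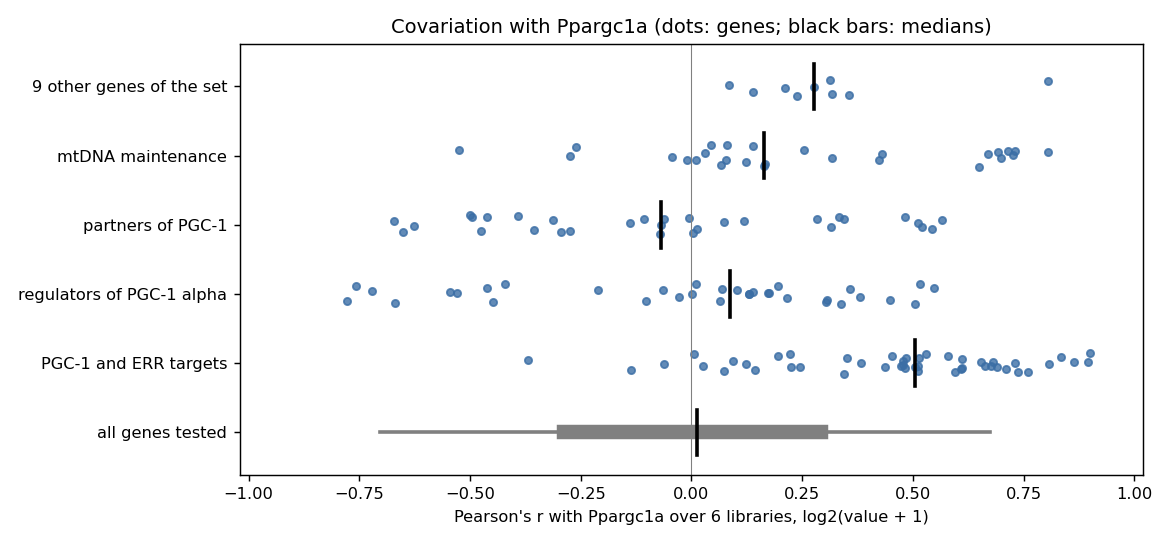
Pearson's r with *Ppargc1a* over the 6 libraries (horizontal axis) for the other 9 genes of the set and for 4 gene lists, 1 point per gene with the median as a black bar, above the range of all genes tested (thick line between the quartiles, thin line over all but both tails, from -0.70 to 0.67). The medians are 0.28 for the 9 genes, 0.16 for mitochondrial DNA genes, -0.07 for partners, 0.09 for regulators and 0.51 for targets, with 0.01 for all genes.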

How the data were processed

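Total RNA of GAS muscle was turned into stranded mRNA libraries. The authors deposited 1 table with a normalised signal per gene and library (read counts divided by 1 size factor). Their own columns, also in the deposited table, hold group means (signal), log2 fold changes, 2 score columns (a standard error and a test statistic), p-values and adjusted p-values; no step used them. The study's software was Partek Flow version 9.0.20.0622. The genome build was GRCm38 (mm10) according to the submitters' processing notes. Aligner and counter were not given in the sources used here. Whole reads were recovered by division by the smallest positive value of a library, and 100% of values were whole within 1e-04. The totals, 16219227 to 32148270 reads, set the precision of low genes. The labels give each sample a time of 48 h that no source used here explains.

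Groups came from the labels (mKD libraries are labelled KO). limma 3.58.1 (R 4.3.3) with a trend was fitted to log2(value + 1), with genotype as the only term, over the 12322 of 22027 genes that pass the filterByExpr function of edgeR 4.0.16, with Benjamini-Hochberg adjustment over all of them. Calls were made at an adjusted p under 0.05 and at 1.2-fold with an unadjusted p under 0.05. Permutation tests were exact and two-sided, over 20 arrangements of the libraries or 720 pairings for a correlation. The limma, edgeR and DESeq2 fits of genotype were tried on simulated counts, and the permutation tests and correlations were not.

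Alternatives were TMM and upper-quartile scaling, edgeR and DESeq2 1.42.0 on the recovered reads, no filter, a mean value of at least 50, pseudocounts of 0.5 and 4, removal of each library's trend over log2 length of the longest GENCODE M21 transcript (lowess, span 0.3), a block for the replicate number, and fits without each library in turn or without mKD1 and mKD3. The slow fibre covariate, the correlations with slow fibre markers and leaving out WT2 and WT3 were chosen after seeing the data. The 10 genes and the 12 gene lists were chosen with earlier results of these data known. Besides the 10 genes and *Tet3*, the genes named are up to 4 of each pathway list with the smallest p and 2 with the highest mean, 7 partners or regulators with textbook roles, and the 5 genes with the highest and 3 with the lowest r with *Ppargc1a* at a mean value of at least 50. The overlapping genes, *Gabpb1*, *Gabpb2*, *Adipoq* and the fatty acid genes were added after their values were seen. Coordinates were taken from GENCODE M21 (GRCm38), where 99.7% of the gene identifiers were found. The limma p-values weigh a genotype difference against the variation between these mice, moderated over all genes tested. The permutation p-values compare arrangements or pairings of the libraries. The labels name no batch.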

Additional observations from a re-analysis of the deposited data

How the results depend on the processing

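Of 19 alternatives, none brought one of the 10 genes to an adjusted p under 0.05: the adjusted p of the genes ran from 0.13 to 0.997 over them. *Tfam* kept its side of every threshold, and the direction of *Ppargc1b*, *Pprc1*, *Esrrg*, *Nrf1*, *Gabpa* and *Tfam* was kept in all 19. TMM and upper-quartile scaling, a mean value of at least 50 and pseudocounts of 0.5 and 4 changed no call and no direction for the 10 genes. Where a call changed, the cause was not tested.

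DESeq2 called 535 genes at an adjusted p under 0.05, against 2 by limma, with *Ppargc1b* at -0.62 and *Esrrg* at -0.73 past the 1.2-fold cutoff and *Pprc1* at 0.31 no longer past it. edgeR and the fit without a filter each gave 2 mitochondrial DNA genes past the cutoff in place of 1. Of all genes tested, 2223 passed in edgeR and 2291 without a filter. With the length trend removed, 0 genes were called at an adjusted p under 0.05 and 1294 in place of 2196 at 1.2-fold, of which 4 were partners and 1 was a target. In that fit *Esrra* turned to -0.016, *Nrf1* passed the cutoff at 0.32 and *Gabpa* at -0.22 no longer did, and r with *Ppargc1a* turned to -0.047 for *Ppargc1b* and -0.18 for *Gabpa*.

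Libraries with equal replicate numbers did not deviate together from their genotype means over the genes tested (r of 0.06, -0.05 and -0.08). Whether equal numbers mark littermates is not given in the sources used here, and these r cannot decide it. With the replicate block, 0 genes were called at an adjusted p under 0.05, 1742 in place of 2196 at 1.2-fold, and 2 targets passed. *Ppargc1b* then passed the cutoff at -0.57 and *Pprc1* at 0.32 did not, while r turned to -0.0755 for *Ppargc1b* and -0.32 for *Tfam* with *Ppargc1a*, and to 0.22 for *Tfb2m* with the slow fibre level.

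Without mKD replicates 1 and 3, 4 genes were called at an adjusted p under 0.05 and 1193 at 1.2-fold, among them 1 of the 10 genes, 2 partners and 3 regulators. *Ppargc1a* passed at 0.49, *Pprc1* (0.39) and *Gabpa* (-0.27) did not, and *Tfb2m* turned to 0.18; the lone mKD library was assumed to vary like the WT libraries. The settings chosen after seeing the data gave the following. The slow fibre covariate left 0 genes at an adjusted p under 0.05, *Pprc1* at 0.32 not past the cutoff and *Esrrg* at -0.82 past it. Without WT replicates 2 and 3, 0 genes were called at an adjusted p under 0.05, *Esrrb* turned to 0.16, and 3 mitochondrial DNA genes, 4 partners and 6 regulators passed at 1.2-fold. With genotype means removed, 1 relation with the slow fibre level held at an adjusted p under 0.05, that of *Esrrg* (r = 0.95, p = 0.00139 over the permutations of pairings, which ignore that 2 means were removed). Spearman's rho of *Nrf1* with the slow fibre level was -0.029.

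Leaving out 1 library at a time gave 0 to 4 genes at an adjusted p under 0.05 and 1467 (without mKD1) to 2304 at 1.2-fold. Among those past 1.2-fold were 0 to 2 of the 10 genes, 1 to 2 mitochondrial DNA genes, 2 to 9 partners, 6 to 10 regulators and 0 to 10 targets. Log2 fold changes ranged from -0.10 to 0.30 for *Ppargc1a*, from -0.78 to -0.28 for *Ppargc1b*, from 0.21 to 0.40 for *Pprc1*, from -0.033 to 0.27 for *Esrra*, from -0.44 to 0.28 for *Esrrb* and from -1.01 to -0.27 for *Esrrg*. They ranged from 0.25 to 0.31 for *Nrf1*, from -0.39 to -0.31 for *Gabpa*, from 0.03 to 0.23 for *Tfam* and from -0.13 to 0.084 for *Tfb2m*. Correlations with *Ppargc1a* ranged from -0.35 to 0.55 for *Ppargc1b*, from -0.31 to 0.64 for *Pprc1*, from -0.16 to 0.42 for *Esrra*, from -0.052 to 0.57 for *Esrrb* and from -0.074 to 0.66 for *Esrrg*. Those of *Nrf1* ran from -0.19 to 0.83, of *Gabpa* from -0.57 to 0.47, of *Tfam* from 0.10 to 0.64 and of *Tfb2m* from 0.60 to 0.99. With the slow fibre level they ranged from -0.40 to 0.86 for *Ppargc1b*, from -0.49 to 0.76 for *Nrf1*, from -0.21 to 0.62 for *Gabpa*, from -0.44 to 0.019 for *Tfam* and from -0.58 to 0.44 for *Tfb2m*. With 3 mice a genotype, the exact permutation tests between genotypes are limited to a p of 0.10.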

Other observations

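Among genes with a mean normalised count of at least 50, the 5 whose levels over the 6 libraries were most like those of *Ppargc1a* were *Daglb* (Pearson's r 0.99), *Slf1* (0.98), *Samd1* (0.98), *Slc25a46* (0.97) and *Tcf25* (0.97). *Slc25a46*, an outer membrane protein of mitochondria, had normalised counts of 1072, 996 and 1023 in WT and of 915, 1217 and 1024 in mKD. The values moved within a far smaller range than those of *Ppargc1a*, with mKD1 lowest and mKD2 highest. The 3 genes with the most opposite pattern were *Gak* (-0.98), *Sorcs2* (-0.97) and *Fos* (-0.97). *Fos*, an immediate early gene, had normalised counts of 179, 206 and 165 in WT and of 1413, 12.9 and 220 in mKD. It was thus highest in mKD1, the library lowest in *Ppargc1a*, and lowest in mKD2, the library highest in *Ppargc1a*. These genes were picked for their r among 12322 genes, so their r is a description with no test.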
